A study of Mus musculus with 6 samples.

Results

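Small nucleolar RNAs (snoRNAs) were taken from the deposited gene table as the rows with the biotype snoRNA and a summed read count of at least 100 over the 6 libraries. The rule left 54 of 1331 snoRNA rows, in a table of 45777 genes. A further 337 rows had 1 to 99 reads and 940 had 0 reads. The 54 held 90558 of the 98042 reads counted to snoRNA rows, or 92.37%, and 0.01738% of all reads in the table.

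The libraries came from mouse small intestine, 3 labelled as PKCzeta overexpression (replicates 2-1, 4-1 and 4-2) and 3 labelled as GFP control (replicates 1-1, 1-4 and 3-1). The title of every sample begins with DIO, which the labels do not spell out, and they give no strain, age, promoter or vector for either group. PKCzeta is atypical protein kinase C zeta, encoded by Prkcz, and GFP is the green fluorescent protein used as the control. Total RNA was sequenced after depletion of ribosomal RNA, to between 77573133 and 93742978 counted reads per library. Levels are given as CPM, reads of a gene scaled to a common library size, which was set by TMM, a trimmed mean of gene ratios. Every log2 fold change is PKCzeta minus GFP, with its standard error (SE).

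Prkcz, the gene named in the labels, had 82.5, 100.1 and 57.0 CPM in the PKCzeta-labelled libraries, against 70.5, 98.6 and 96.9 CPM in the GFP-labelled libraries. The log2 fold change of Prkcz was -0.15 (SE 0.24, adjusted p = 0.95 in edgeR). The groups overlapped, so overexpression was not seen in the Prkcz counts, and "PKCzeta" and "GFP" below name libraries by their labels. The labels do not give the species of the construct. All 16 epithelial markers examined were present, with summed levels of 31410, 40630 and 30620 CPM in PKCzeta libraries, against 49010, 57090 and 43540 CPM in GFP libraries. In a piece of tissue, fewer cells of a type and less RNA per cell cannot be told apart.

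snoRNAs are short noncoding RNAs of the nucleolus that work as guides inside protein particles. Box C/D snoRNAs carry the C box near the 5′ end and the D box near the 3′ end, and guide fibrillarin to sites of 2′-O-methylation in ribosomal RNA. H/ACA snoRNAs end in an ACA box close to the 3′ end and guide dyskerin to uridines that become pseudouridine. A few snoRNAs, among them U3, U8, U14, U17 and U22, act in the cleavage of the ribosomal RNA precursor. Most vertebrate snoRNAs are cut out of introns of host genes, many of which encode ribosomal proteins and translation factors.

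By gene symbol, 9 of the 54 were box C/D (Snord) and 14 were H/ACA (Snora). The other 31 had other symbols, mostly beginning with LOC, and their descriptions placed 9 more with SNORD and 20 more with SNORA, while 2 named neither class (U89 and U2-19). Symbol and description together gave 18 box C/D and 34 H/ACA RNAs. In what follows a name in capitals, such as SNORD24, is the description of such a row. All 54 lay on a GENCODE snoRNA of the build GRCm38, with at least 70% of either interval shared.

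The sequences below come from the GENCODE M21 transcripts on GRCm38 (mm10), written 5′ to 3′. The first set shows the 4 box C/D RNAs that lie within 1 host gene, Gas5, since their changes are given together further on. Capitals mark the C box core TGATGA where it occurs in the first 25 bases and the D box CTGA in the last 20. They lie at chr1:161036057-161036139, plus strand for SNORD24 (LOC115487638), chr1:161036682-161036741, plus strand for SNORD44 (LOC115487644), chr1:161035394-161035473, plus strand for SNORD74 (LOC115487643) and chr1:161036984-161037049, plus strand for SNORD78 (LOC115487677).
SNORD24: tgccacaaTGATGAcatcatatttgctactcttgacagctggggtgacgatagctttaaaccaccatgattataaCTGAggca
SNORD44: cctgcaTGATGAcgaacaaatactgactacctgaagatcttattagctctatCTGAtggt
SNORD74: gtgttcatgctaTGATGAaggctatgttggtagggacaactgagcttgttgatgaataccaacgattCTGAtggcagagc
SNORD78: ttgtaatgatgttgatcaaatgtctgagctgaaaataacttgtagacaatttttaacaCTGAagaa

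The next 3 are the most counted Snord RNA (Snord17, chr2:144265979-144266216, minus strand), the RNA known as U8 (Snord118, chr11:69073427-69073561, plus strand), and the member with the smallest p (Snord16a, chr9:64175423-64175521, plus strand), with the same boxes in capitals. Snord118 and Snord16a have no TGATGA within their first 25 bases in these transcripts.
Snord17: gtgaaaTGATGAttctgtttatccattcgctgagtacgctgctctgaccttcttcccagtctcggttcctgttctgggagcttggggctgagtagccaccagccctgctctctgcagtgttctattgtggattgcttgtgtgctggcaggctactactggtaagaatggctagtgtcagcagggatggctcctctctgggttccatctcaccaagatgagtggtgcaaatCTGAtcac
Snord118: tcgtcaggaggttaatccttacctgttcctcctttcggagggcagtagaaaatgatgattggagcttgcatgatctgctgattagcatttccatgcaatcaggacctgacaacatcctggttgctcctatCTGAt
Snord16a: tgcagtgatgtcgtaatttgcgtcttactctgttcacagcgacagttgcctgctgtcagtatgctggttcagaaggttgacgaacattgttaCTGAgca

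Among the H/ACA RNAs, Snora73a (chr4:132352775-132352979, minus strand) and Snora73b (chr4:132352322-132352526, minus strand), both U17 genes in Snhg3, are shown because they are near copies that hold the most reads. Capitals mark the ACA box, which stands 3 bases before the 3′ end. The 2 sequences share 96.6% identity, with 7 edits between them.
Snora73a: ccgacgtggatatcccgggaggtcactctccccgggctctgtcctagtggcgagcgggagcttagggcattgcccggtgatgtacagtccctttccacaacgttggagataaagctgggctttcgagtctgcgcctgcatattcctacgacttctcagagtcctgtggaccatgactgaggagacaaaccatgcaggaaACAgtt
Snora73b: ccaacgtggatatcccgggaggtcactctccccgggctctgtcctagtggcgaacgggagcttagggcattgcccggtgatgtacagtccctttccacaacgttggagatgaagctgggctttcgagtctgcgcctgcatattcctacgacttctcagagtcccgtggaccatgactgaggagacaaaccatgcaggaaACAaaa

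The 3 SNORA48 genes lie within Eif4a1 (LOC115487892, chr11:69669635-69669778, minus strand), Nap1l1 (LOC115487522, chr10:111481493-111481636, plus strand) and Gsr (LOC115487050, chr8:33691801-33691944, plus strand), and are shown because the values of these near copies are compared further on. Their identities were 91.1% between the Eif4a1 and Nap1l1 copies, 93.8% between the Eif4a1 and Gsr copies and 89.2% between the Nap1l1 and Gsr copies.
SNORA48 in Eif4a1: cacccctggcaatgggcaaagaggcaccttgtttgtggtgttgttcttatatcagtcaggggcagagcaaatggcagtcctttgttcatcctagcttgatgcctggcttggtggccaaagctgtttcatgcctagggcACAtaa
SNORA48 in Nap1l1: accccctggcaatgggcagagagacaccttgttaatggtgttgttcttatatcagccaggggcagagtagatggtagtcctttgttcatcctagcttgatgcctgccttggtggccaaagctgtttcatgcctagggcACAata
SNORA48 in Gsr: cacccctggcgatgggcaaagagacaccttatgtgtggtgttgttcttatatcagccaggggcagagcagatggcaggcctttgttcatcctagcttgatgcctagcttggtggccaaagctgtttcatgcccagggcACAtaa

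Over the members, TGATGA was found in the first 25 bases of 12 of 18 box C/D RNAs and CTGA in the last 20 bases of 17 of 18. Of the 34 H/ACA RNAs, 23 had ACA 3 bases before the 3′ end. Only the RNA strand was searched, and the windows for the 2 box C/D motifs do not overlap. Among all 1507 GENCODE snoRNA genes the shares were 21.8% for TGATGA, 35.4% for CTGA and 18.3% for ACA. No member was identical to another snoRNA gene of the annotation, but 11 of 54 lay within 5% of one, and for these the authors' counting could have split reads between copies.

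Most of the signal came from 3 genes. Snora73a, Snora74a (a U19 gene in Snhg4) and Snora73b together held 67.27% of the members' reads, from 65.36% to 68.94% of them in single libraries. On the authors' TPM scale, which divides by gene length, Snora73a averaged 415 TPM over the 6 libraries, Snora74a 174 and Snora73b 138. SNORA12 in Cwf19l1 (LOC115489055) followed with 94.6 TPM, then Snord17 with 49.6, SNORA73 in Rpsa (LOC115487256) with 43.7 and SNORA48 in Eif4a1 with 40.1. The lowest member, SNORA74 in Timm23, averaged 1.71 TPM. Lengths ran from 60 to 271 bases, and longer members had more CPM (Spearman's rho = 0.547 across the 54 members, which share the same 6 libraries). CPM is not divided by length, and with mean TPM rho was 0.201. Within the classes that TPM value was -0.0743 for box C/D and 0.412 for H/ACA RNAs. Of the members, 12 averaged at least 1 CPM and 42 were below it, down to 4 reads in 1 library.

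**Figure D1:**
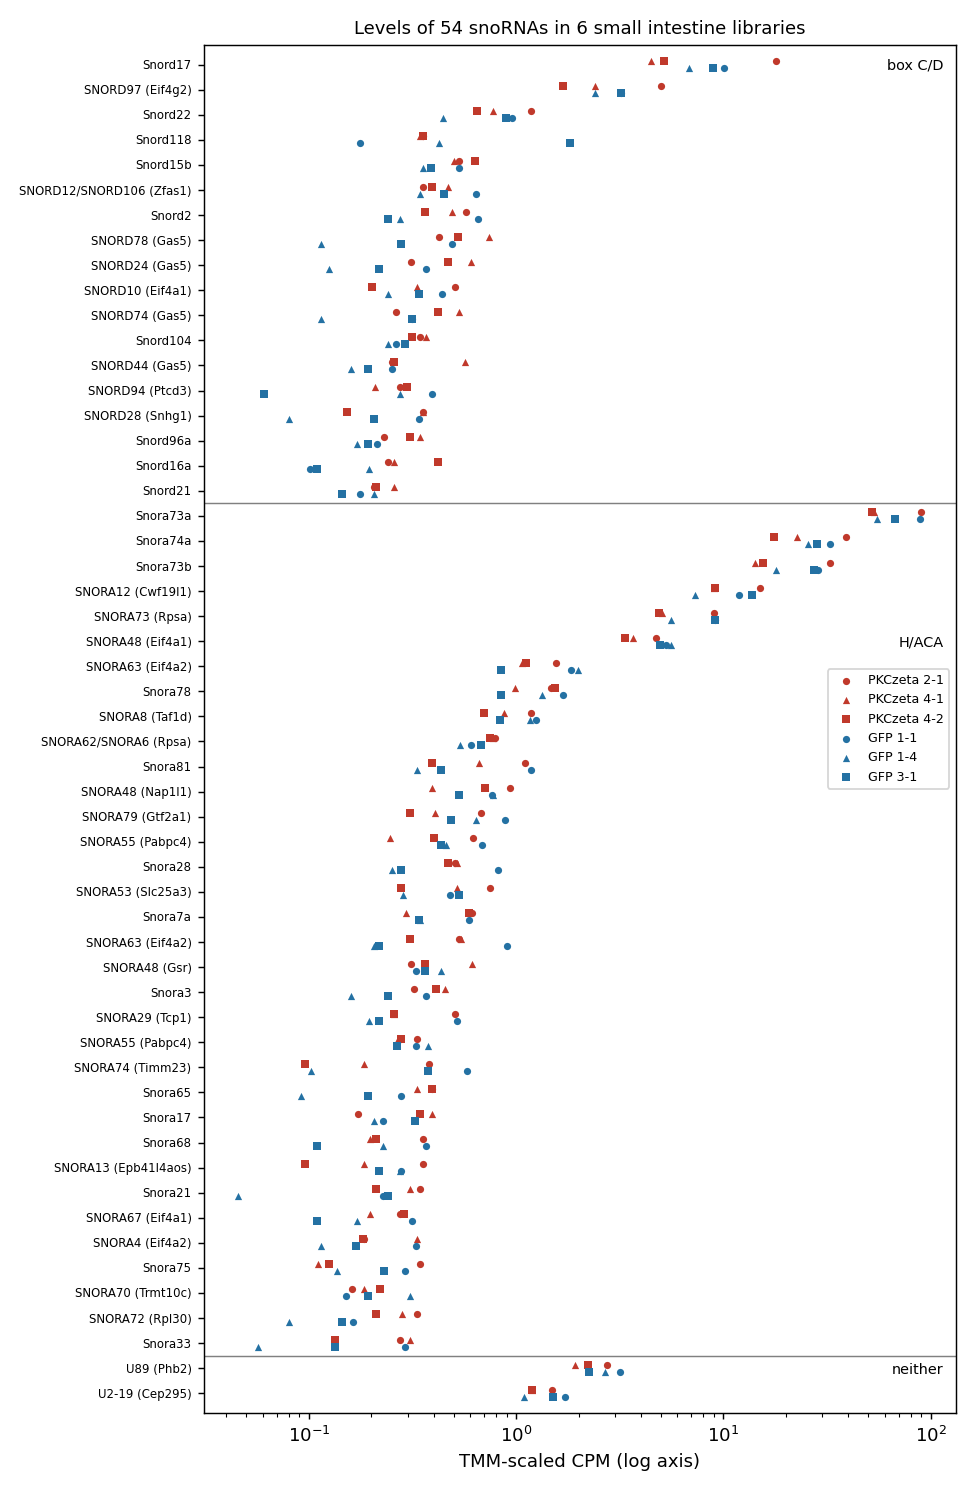
Level of each of the 54 snoRNAs in each library, in TMM-scaled CPM on a log axis. Each point is 1 library, red for PKCzeta and blue for GFP, with the box C/D RNAs above, the H/ACA RNAs in the middle and the 2 of neither class at the bottom, each ordered by level. Snora73a stands highest, between 51.8 and 90.1 CPM in PKCzeta libraries and between 55.4 and 88.4 CPM in GFP libraries, while most members lie below 1 CPM.

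All 54 snoRNAs passed the filter on low counts, and none differed between the PKCzeta and GFP libraries past the threshold of 0.05 on the adjusted p. In edgeR's quasi-likelihood test, adjusted over all 18456 tested genes, the smallest adjusted p among them was 0.917, and 0 of 54 had an unadjusted p below 0.05. The background was 0 of 18456 genes called, or 0%, while 2.41% of tested genes were higher and 3.07% lower at an unadjusted p below 0.05. DESeq2 called 87 of 17832 genes, or 0.488%, with 0 of the 54 snoRNAs among them and a smallest adjusted p of 0.933 (SNORA48 in Eif4a1). limma voom called 0%. These p-values do not show that the levels were equal.

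Box C/D RNAs mostly had log2 fold changes above 0, none of them called, and H/ACA RNAs were split. Of the 9 Snord genes, 8 had a log2 fold change above 0, with a median of 0.35. Of the 14 Snora genes, 10 were above 0, with a median of 0.15. Among the other rows, those described as SNORD had 8 of 9 above 0 with a median of 0.46, and those described as SNORA had 9 of 20 with a median of -0.09. Together 16 of 18 box C/D and 19 of 34 H/ACA RNAs were above 0, against 54.3% of all tested genes, whose median was 0.04. SE ranged from 0.24 to 0.77 among the 54. Without PKCzeta replicate 2-1 the box C/D count was 12 of 18 and the H/ACA count 12 of 34, and without GFP replicate 1-4 the box C/D count was also 12 of 18. Without GFP replicate 3-1 the H/ACA count was 13 of 34. With library totals alone as the scaling, which moved the median of all genes to 0.26, 16 of 18 box C/D and 25 of 34 H/ACA RNAs were above 0. With limma voom the counts were 13 of 18 and 18 of 34. Box C/D and H/ACA RNAs also differed in level and place in the host, as given further on.

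Group ranges that did not overlap were found for 8 of 54 members that were higher in PKCzeta libraries and for 1 that was lower, that is 14.8% and 1.85%. The background over all tested genes was 4.72% higher and 5.66% lower. The 8 were Snord16a, Snord21, Snord96a, Snord104, SNORD44, Snora65, SNORA72 and SNORA62/SNORA6 in Rpsa, and the 1 was SNORA48 in Eif4a1. All 8 averaged below 1 CPM.

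**Figure D2:**
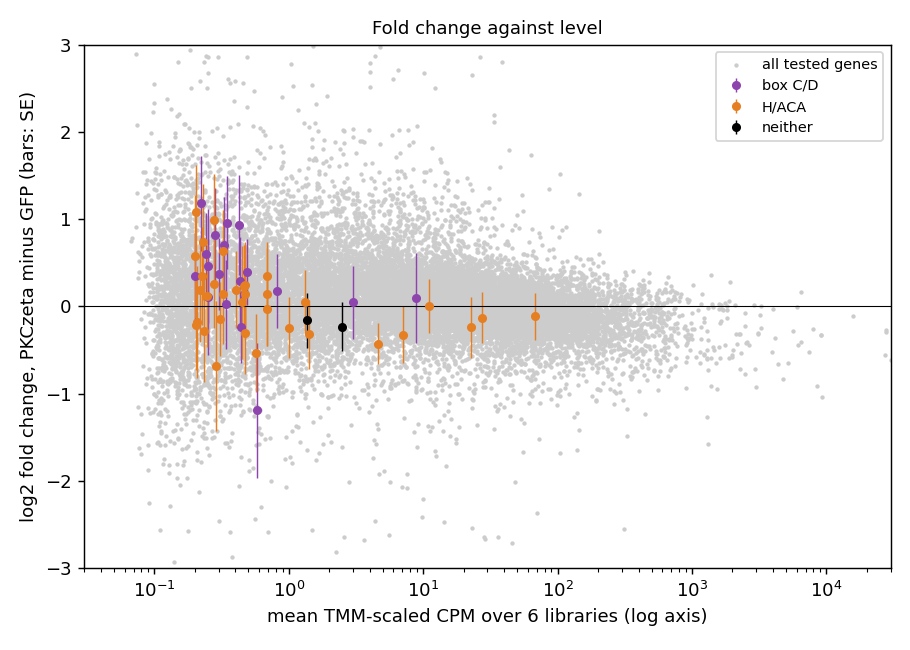
Log2 fold change, PKCzeta minus GFP, against the mean level of each gene in TMM-scaled CPM on a log axis. Grey points are the 18456 tested genes, 40 of which lie outside the axis limits of 3 in either direction, and coloured points are the 54 snoRNAs with bars of 1 SE. The members above 1 CPM lie near 0 or just below it, and those below 1 CPM are spread more widely and more often above 0.

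The members' changes went with their level. Members of at least 1 CPM had 4 of 12 above 0 and a median of -0.14, and those under 1 CPM had 31 of 42 above 0 and a median of 0.21. With library totals or TPM, 7 of the 12 were above 0, and without PKCzeta replicate 2-1 the counts were 0 of 12 and 24 of 42. Across the 54, Spearman's rho between mean CPM and log2 fold change was -0.498, and between length and log2 fold change -0.486. These describe members that share the same 6 libraries.

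Snord17 was the most counted Snord RNA. It had 17.9, 4.48 and 5.16 CPM in PKCzeta libraries, against 10.03, 6.85 and 8.86 CPM in GFP libraries. PKCzeta replicate 2-1, with 1553 reads, was the highest of the 6 and the other PKCzeta libraries were the lowest. Its log2 fold change was 0.09 (SE 0.52), and -0.88 without replicate 2-1.

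Snord118, the U8 RNA, is made from its own gene and is needed for maturation of the large ribosomal subunit RNAs in Xenopus. Its reads numbered 31, 28 and 37 in PKCzeta libraries, against 14, 37 and 150 in GFP libraries. GFP replicate 3-1 alone set the difference, which was -1.19 (SE 0.77) with it and 0.23 without it. Snord13 (U13), with 94 reads just under the count that made a member, was also highest in that library, with 21, 10 and 9 reads in PKCzeta libraries and 12, 7 and 35 in GFP libraries.

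Snord22 (U22), which lies in Snhg1, had 1.17, 0.775 and 0.651 CPM in PKCzeta libraries, against 0.958, 0.446 and 0.896 CPM in GFP libraries. Those ranges overlapped, and the log2 fold change of 0.18 (SE 0.42) changed sign without PKCzeta replicate 2-1 or without GFP replicate 1-4.

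Snord16a, within the ribosomal protein gene Rpl4, had 21, 21 and 44 reads in PKCzeta libraries, against 8, 17 and 9 in GFP libraries. In CPM these were 0.242, 0.258 and 0.421 against 0.101, 0.194 and 0.109, so that the groups did not overlap. The log2 fold change was 1.18 (SE 0.54, adjusted p = 0.917), while Rpl4 itself had 0.17 (SE 0.22). Among the other Snord genes, log2 fold changes were 0.39 (SE 0.38) for Snord15b in Rps3, 0.29 (SE 0.51) for Snord2 in Eif4a2, 0.37 (SE 0.42) for Snord104, 0.60 (SE 0.47) for Snord96a in Rack1 and 0.35 (SE 0.49) for Snord21 in Rpl5.

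The 4 box C/D RNAs of Gas5 had log2 fold changes between 0.71 and 0.96. Gas5 is a noncoding gene whose introns hold a run of box C/D RNAs and whose spliced transcript is degraded during translation. SNORD24 had 0.310, 0.603 and 0.469 CPM in PKCzeta libraries, against 0.366, 0.126 and 0.218 CPM in GFP libraries. SNORD78 had 0.425, 0.738 and 0.526 CPM in PKCzeta libraries, against 0.492, 0.114 and 0.278 CPM in GFP libraries. PKCzeta replicate 4-1 was the highest library and GFP replicate 1-4 the lowest for all 4.

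Summed, the Gas5 snoRNAs had 109, 198 and 175 reads in PKCzeta libraries, against 113, 45 and 83 in GFP libraries. Their log2 fold changes were 0.96 for SNORD24, 0.93 for SNORD78, 0.82 for SNORD44 and 0.71 for SNORD74, with SE of 0.54, 0.57, 0.53 and 0.55. All 4 were above 0 in every alternative that tested them, and none was called. Gas5 itself had 37.1, 38.0 and 40.2 CPM in PKCzeta libraries, against 25.7, 39.1 and 27.9 CPM in GFP libraries, with a log2 fold change of 0.31 (SE 0.19). In its own counts GFP replicate 1-4 was the second highest library, whereas its snoRNAs were lowest there.

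The H/ACA RNAs that carry most of the reads had small differences with wide errors. Snora73a had 90.1, 53.2 and 51.8 CPM in PKCzeta libraries, against 88.4, 55.4 and 67.3 CPM in GFP libraries. With a 95% interval of -0.73 to 0.50, its log2 fold change was -0.11 (SE 0.27). Snora74a had 39.1, 22.5 and 17.6 CPM against 32.6, 25.5 and 28.3, a log2 fold change of -0.13 (SE 0.29). Snora73b had 32.7, 14.2 and 15.4 CPM against 28.6, 17.9 and 27.2, a log2 fold change of -0.24 (SE 0.35). In all 3, PKCzeta replicate 2-1 was the highest library and GFP replicate 1-1 the second highest. Snora73a and Snora74a had log2 fold changes above 0 with library totals and on the TPM scales.

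On the log2 scale SNORA12 in Cwf19l1 was at 0.003 (SE 0.31) and SNORA73 in Rpsa at -0.33 (SE 0.33). Other H/ACA RNAs named by their level had 0.05 (SE 0.37) for Snora78 in Snhg9, 0.15 (SE 0.59) for Snora81 in Eif4a2 and 0.15 (SE 0.53) for Snora28 in Eif5.

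SNORA48 in Eif4a1, a translation initiation helicase gene, was the 1 member whose groups did not overlap with the PKCzeta libraries lower. It had 4.73, 3.65 and 3.37 CPM in PKCzeta libraries, against 5.27, 5.57 and 4.94 CPM in GFP libraries. This gave a log2 fold change of -0.43 (SE 0.24, adjusted p = 0.917), with a 95% interval of -0.98 to 0.13. The copy in Nap1l1 had -0.03 (SE 0.42) and the copy in Gsr 0.19 (SE 0.44), and Eif4a1 itself 0.20 (SE 0.27). The other 2 members in Eif4a1 had 0.02 (SNORD10) and 0.35 (SNORA67).

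SNORA62/SNORA6 in Rpsa (LOC115485682) was the member higher in every PKCzeta library with the highest level. It had 0.793, 0.775 and 0.746 CPM in PKCzeta libraries, against 0.605, 0.537 and 0.678 CPM in GFP libraries. Its log2 fold change was 0.35 (SE 0.32). SNORA72 in Rpl30 had 1.08 (SE 0.54), with 29, 23 and 22 reads in PKCzeta libraries and 13, 7 and 12 in GFP libraries. Snora65 in Rpl12 had 0.99 (SE 0.53).

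Class sums overlapped between the groups. The 14 Snora genes summed to 167.8, 94.5 and 89.7 CPM in PKCzeta libraries, against 155.9, 101.9 and 126.3 CPM in GFP libraries, means of 117.3 ± 43.8 and 128.0 ± 27.0 (SD, n = 3 each). The 9 Snord genes summed to 21.5, 7.82 and 8.41 CPM in PKCzeta libraries, against 13.1, 9.15 and 12.9 CPM in GFP libraries, means of 12.6 ± 7.74 and 11.7 ± 2.24. The log2 ratios of the means were -0.13 for Snora and 0.10 for Snord. Without PKCzeta replicate 2-1 they were -0.51 and -0.57. The Snora ratio was 0.01 without PKCzeta replicate 4-1, 0.04 without PKCzeta replicate 4-2, 0.03 without GFP replicate 1-1 and -0.27 without GFP replicate 1-4. It was 0.07 with library totals or TPM, and the Snord ratio was -0.05 without GFP replicate 1-4. Without Snord17 the other 8 Snord genes summed to 3.66, 3.35 and 3.25 CPM, against 3.08, 2.31 and 4.08 CPM.

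Single libraries stood apart. PKCzeta replicate 2-1 and GFP replicate 1-1 were each the highest library for 16 of 54 members, and GFP replicate 1-4 was the lowest for 23 of 54. Among the 42 members under 1 CPM it was the lowest for 21. The median deviation of the members from their own mean, as log2(CPM + 0.05), was 0.31, -0.05 and -0.15 in PKCzeta replicates 2-1, 4-1 and 4-2, against 0.33, -0.31 and -0.13 in GFP replicates 1-1, 1-4 and 3-1.

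**Figure D3:**
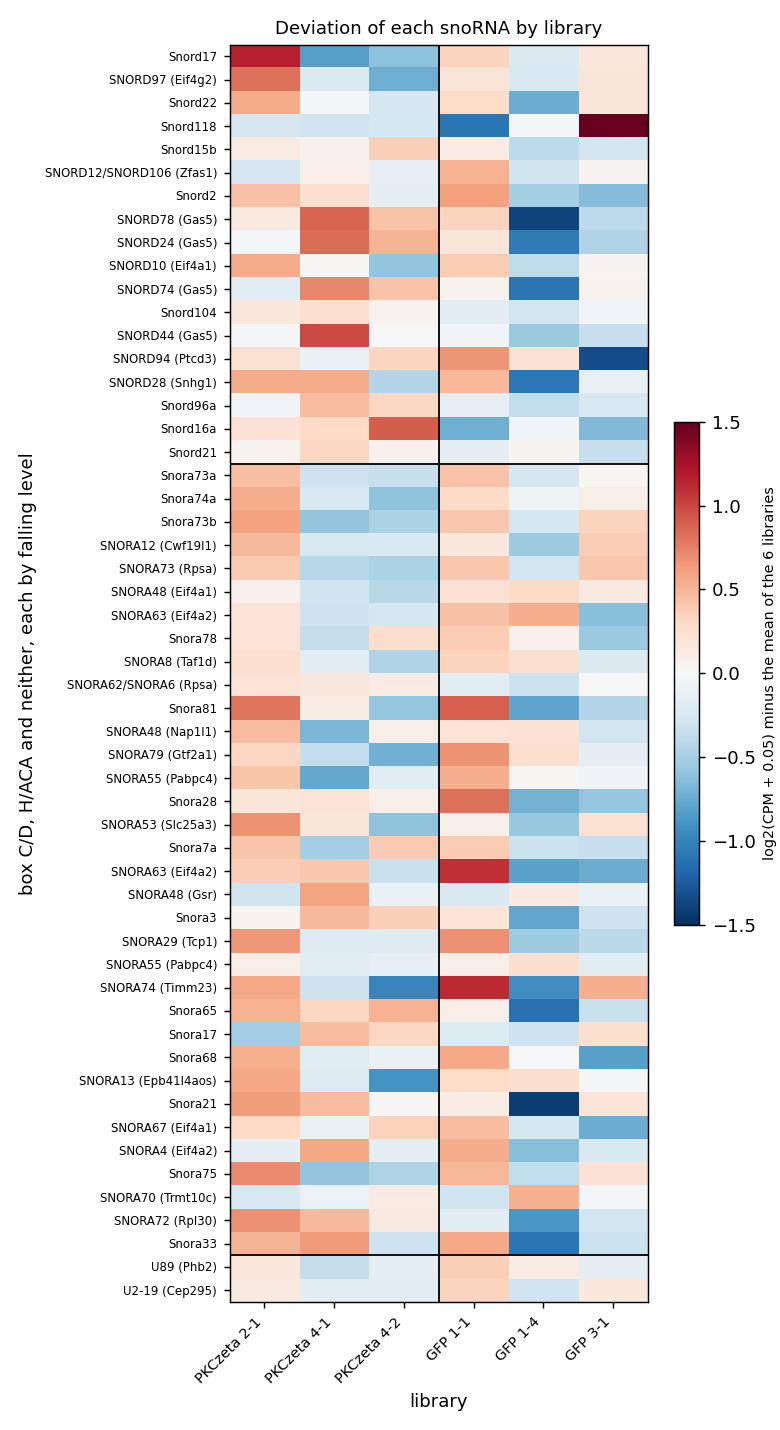
Deviation of each of the 54 snoRNAs in each library from its mean over the 6 libraries, as log2(CPM + 0.05), red above and blue below, with the colour scale ending at 1.5 in either direction. Columns are the 3 PKCzeta libraries and then the 3 GFP libraries. The red columns are PKCzeta 2-1 and GFP 1-1 and the bluest is GFP 1-4, with the 4 Gas5 RNAs red in PKCzeta 4-1 and blue in GFP 1-4.

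Other small structured RNAs were high in the same 3 libraries as the summed Snora and Snord CPM. 7SK, an inhibitor of transcription elongation, had 19630, 14910 and 11150 CPM in PKCzeta libraries, against 19320, 9950 and 19910 CPM in GFP libraries. The RNA of RNase P (Rpph1) had 12960, 7139 and 4242 CPM against 12400, 4248 and 13900. The RNAs of Cajal bodies (scaRNAs), which are built like snoRNAs and guide changes in spliceosomal RNAs, summed to 245.0, 136.7 and 96.8 CPM against 198.5, 95.9 and 197.8. Mitochondrial 16S ribosomal RNA took 4.25%, 2.24% and 0.919% of reads in PKCzeta libraries, against 4.23%, 1.29% and 4.47% in GFP libraries. PKCzeta replicate 2-1 and GFP replicates 1-1 and 3-1 were the 3 highest libraries in each of these. Single snoRNAs differed by level in GFP replicate 3-1, which was the highest library for 2 of 54 members. The 42 members under 1 CPM had a median deviation of -0.23 there and did not follow the sums. The 12 members of at least 1 CPM had 0.14 there, after 0.42 in PKCzeta replicate 2-1 and 0.35 in GFP replicate 1-1. The part of these RNAs in the snoRNA levels was not tested.

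Of the 13 tested genes in a list of other small structured RNAs, 2 were above 0, with a median of -0.27. The count was 5 of 13 with library totals or TPM, and 6 of 14 without PKCzeta replicate 4-2. The U3 genes, which guide early cleavages of the ribosomal RNA precursor, are filed as snRNA in the table and were not members. On the log2 scale Rnu3b1 was at -0.62 (SE 0.37) and Rnu3a at -0.57 (SE 0.35), and both missed the threshold.

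The proteins of the snoRNA particles had another order of libraries. The 4 tested box C/D core proteins (Fbl, Nop56, Nop58 and Snu13) summed to 87.1, 126.2 and 193.8 CPM in PKCzeta libraries, against 75.0, 130.2 and 74.3 CPM in GFP libraries, with PKCzeta replicate 4-2 highest. The 4 H/ACA core proteins (Dkc1, Gar1, Nhp2 and Nop10) summed to 44.2, 66.3 and 91.6 CPM against 35.7, 70.4 and 43.8. All 8 had a log2 fold change above 0, with medians of 0.49 and 0.46, and 0 of 8 had an unadjusted p below 0.05. Nop56 had 0.73 (SE 0.53) and Dkc1, the pseudouridine synthase dyskerin, 0.52 (SE 0.41).

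Genes further along the pathway had the same sign. Of the assembly and processing factors 15 of 16 were above 0 (median 0.28), of the U3 processome proteins, which assemble on the nascent ribosomal RNA, 21 of 21 (median 0.45), and of RNA polymerase I and its factors 13 of 14 (median 0.29). None of them was called and 0 had an unadjusted p below 0.05. Over all tested genes 54.3% were above 0. Heatr1 of the processome had 0.90 (SE 0.45) and Polr1e of RNA polymerase I 0.85 (SE 0.47). Without PKCzeta replicate 4-2 the medians were 0.20 for the box C/D core, 0.15 for the H/ACA core, 0.06 for assembly factors (10 of 16 above 0), 0.15 for the processome and 0.11 for RNA polymerase I. Cell cycle genes, 10 of 10 above 0 with a median of 0.29 (4 of 10 without PKCzeta replicate 4-2), had the same 3 highest libraries as the box C/D core (PKCzeta 4-2, GFP 1-4 and PKCzeta 4-1), with sums of 323.9, 449.6 and 745.8 CPM in PKCzeta libraries and 383.0, 584.9 and 301.0 CPM in GFP libraries, and their part was not tested.

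**Figure D4:**
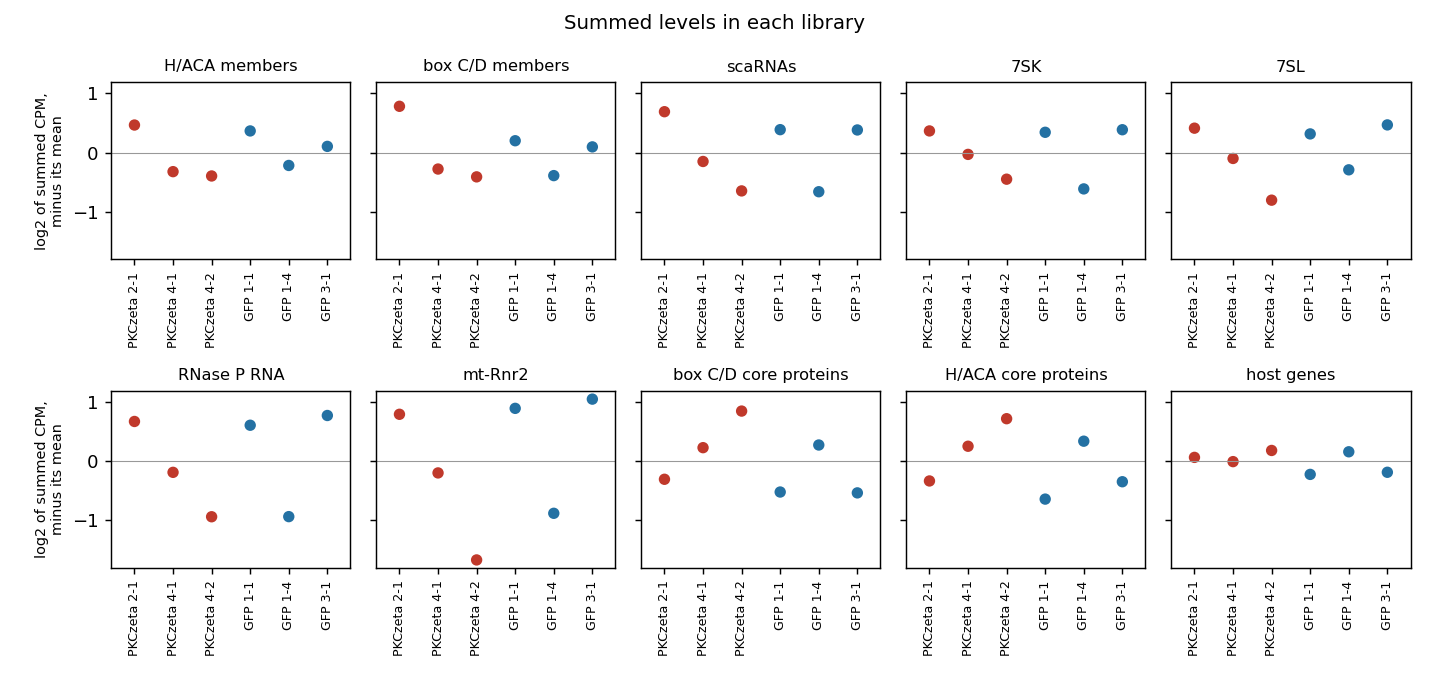
Summed CPM of 10 groups of genes in each library, as log2 minus the mean of the 6 libraries, with PKCzeta libraries in red on the left and GFP libraries in blue on the right. The H/ACA and box C/D snoRNAs, scaRNAs, 7SK, 7SL, RNase P RNA and mitochondrial 16S ribosomal RNA are high in PKCzeta 2-1 and in GFP 1-1 and 3-1, whereas the core proteins are highest in PKCzeta 4-2 and the summed host genes vary little. Among Snord symbols without Snord17, GFP 1-1 was the second lowest with 3.08 CPM and GFP 3-1 the highest with 4.08 CPM. Among Snora symbols without the 3 most counted genes, GFP 3-1 was second lowest with 3.38 CPM and GFP 1-1 highest with 6.32 CPM. The 51 members other than those 3, Snord17 included, summed highest in PKCzeta 2-1, GFP 1-1 and GFP 3-1, with 77.97, 67.41 and 59.75 CPM.

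Host genes were compared with their snoRNAs. A same-strand RefSeq host contained 53 of the 54 members, in 40 host genes, of which 7 held more than 1. The hosts of 39 members code for protein and those of 14 are long noncoding RNAs, with 12 members in ribosomal protein genes and 10 in genes for translation initiation factors. Of the 40 hosts, 37 had a log2 fold change above 0 (median 0.21), 3 of them with an unadjusted p below 0.05, and 0 were called. Over all tested genes the shares were 54.3% above 0 and 2.41% higher at an unadjusted p below 0.05. Member and host had the same sign in 35 of 53 cases, 31 of 53 members lay below their host, and Spearman's rho across the 53 was 0.0215. With nearly all hosts above 0, the same-sign count mostly restates how many members were above 0 (35 of 54). Host changes were mostly small beside the SE of the members, so the low rho does not show that members and hosts were unrelated.

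Snhg1, a noncoding host of Snord22 and SNORD28, had 8.54, 11.4 and 11.7 CPM in PKCzeta libraries, against 6.87, 5.17 and 6.08 CPM in GFP libraries. Its groups did not overlap, and its log2 fold change was 0.80 (SE 0.23, adjusted p = 0.858). Snx5, the host of Snord17, had 0.38 (SE 0.15), Snhg3 -0.09 (SE 0.29) and Snhg4 0.29 (SE 0.25). Of 20 tested genes named as snoRNA hosts, all listed as lncRNA but Snhg11, listed as protein coding, 16 were above 0 (median 0.37), 5 of them with an unadjusted p below 0.05 and 0 called. Over all tested genes 54.3% were above 0 and 2.41% were higher at an unadjusted p below 0.05. Snhg12 had 0.80 (SE 0.26) and Snhg5 0.75 (SE 0.25).

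The count above 0 also went with the place in the host. Those within an exon of some annotated host transcript, such as one that keeps the intron, had 22 of 27 above 0 with a median of 0.35, and those in an intron of every host transcript had 11 of 23 with a median of -0.03. Members in ribosomal protein genes had 11 of 12 above 0, with a median of 0.48. That median was 0.28 without GFP replicate 1-4 and 0.77 without GFP replicate 1-1. Place went with level, as 25 of the 27 in exons were under 1 CPM and 9 of the 23 in introns were at or above it. Among members under 1 CPM, 22 of 25 in exons were above 0 (median 0.35), against 7 of 14 in introns (median -0.003). By class, 12 of 18 box C/D and 13 of 34 H/ACA RNAs were both in exons and under 1 CPM. Of these, 11 of 12 box C/D (median 0.53) and 11 of 13 H/ACA RNAs (median 0.15) were above 0. In introns and under 1 CPM the counts were 2 of 2 box C/D (median 0.07) and 5 of 12 H/ACA RNAs (median -0.09). In introns at 1 CPM or more they were 2 of 2 (median 0.07) and 2 of 5 (median -0.11). The H/ACA RNAs in exons at 1 CPM or more had 0 of 2 above 0. The exon count was 17 of 27 without PKCzeta replicate 2-1, without GFP replicate 1-4 and without GFP replicate 3-1. The intron count was 5 of 23 without PKCzeta replicate 2-1 and 13 of 23 without GFP replicate 1-1. With library totals or TPM the exon and intron counts were 23 of 27 and 16 of 23, and with limma voom 22 of 27 and 7 of 23. The table does not separate reads of a mature snoRNA from reads of an unspliced host transcript over the same bases.

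**Figure D5:**
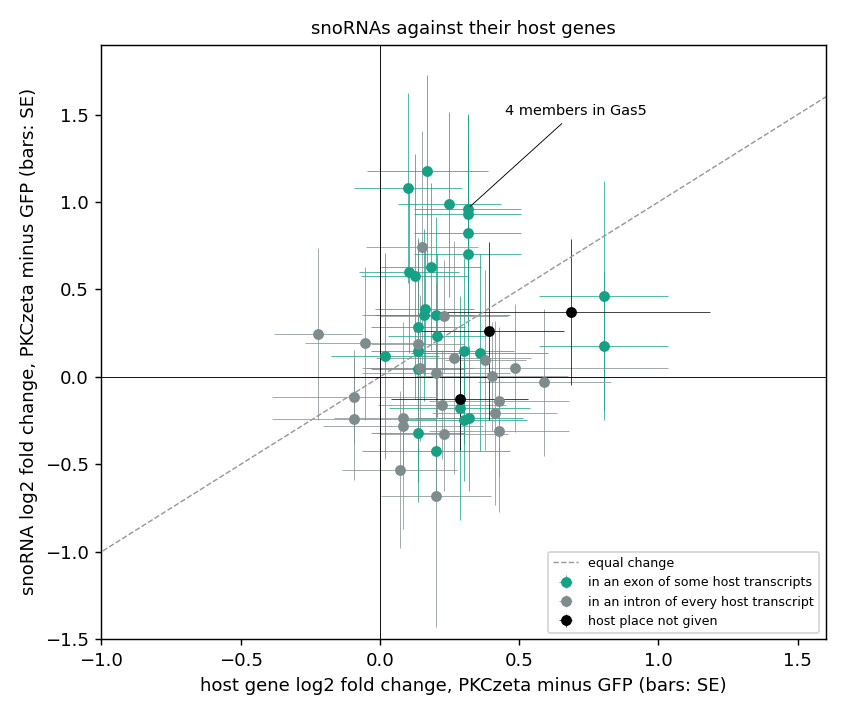
Log2 fold change of 53 snoRNAs against that of their host gene, PKCzeta minus GFP, with bars of 1 SE in both directions and a dashed line of equal change. Green points lie in an exon of some host transcript, grey points in an intron of every host transcript, and black points in hosts with no such annotation. Most hosts lie between 0 and 0.5 while the snoRNAs spread from -0.68 to 1.18, and the 4 Gas5 RNAs stand above their host.

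Markers of other cell types were examined beside the snoRNAs. Of the 16 epithelial markers, 14 were lower in PKCzeta libraries, 7 with an unadjusted p below 0.05, and their summed ranges, given above, did not overlap. Over all tested genes 3.07% were lower and 2.41% higher at an unadjusted p below 0.05, and 54.3% had a log2 fold change above 0. Alpi, the brush border alkaline phosphatase, was at -0.96 on the log2 scale (SE 0.21), and 0 of the 16 were called in edgeR against 2 in DESeq2. Of 10 neutrophil and macrophage markers 9 were above 0, with sums of 253.2, 222.0 and 276.3 CPM in PKCzeta libraries and 192.0, 212.9 and 107.0 CPM in GFP libraries. These sums did not overlap, 4 of the 10 had an unadjusted p below 0.05, and DESeq2 called S100a8, a neutrophil calcium-binding protein gene (edgeR log2 fold change 2.97, SE 0.81, DESeq2 adjusted p = 0.00237). Lymphoid markers summed to 920.0, 930.6 and 1337 CPM against 878.9, 2176 and 530.3, and smooth muscle markers to 923.5, 1165 and 919.1 CPM against 1356, 576.4 and 1372. Enteric neuron and glia markers summed to 21.4, 34.5 and 28.2 CPM against 22.1, 23.3 and 23.0, and fibroblast and mesothelium markers to 297.6, 337.9 and 498.2 CPM against 424.5, 389.0 and 359.8. DESeq2 called the glial gene Gfap, higher in PKCzeta libraries (edgeR log2 fold change 2.04, SE 0.46). It also called the mesothelial genes Upk3b and Lrrn4, lower in PKCzeta libraries (-2.64 and -2.56). Of the fibroblast and mesothelium markers 8 of 10 were below 0, and edgeR called 0 in each of these lists. Those directions depended on the scaling. With library totals 6 of the 10 were above 0 (median 0.03), with 6 on log2(TPM + 1) and 5 on log2(TPM + 0.1). Epithelial markers above 0 were 2 of 16 in the main fit and 5 of 16 with library totals (median -0.27) or TPM. Of 9 pancreas and liver markers, Pnlip and Ins2 had 0 CPM in all 6 libraries, and only 4 passed the filter on low counts. The part of these markers in the snoRNA values was not tested.

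Well known snoRNAs fell under the count of 100. The 4 listed U14 genes had 79, 61, 56 and 53 reads in all 6 libraries (Snord14a, Snord14c, Snord14d and Snord14e), and the Rpl13a intron RNAs had 82 (Snord32a), 43 (Snord33), 35 (Snord34) and 34 (Snord35a). Snora64 had 51. Next to the limit, SNORA72 with 106 reads, Snord21 with 105 and Snora33 with 102 were members, and Snord13, Snora41 and U109 with 94 reads each were not.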

How the data were processed

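Small intestine RNA from 6 libraries was sequenced after ribosomal RNA depletion with a strand-keeping kit, after column extraction, per the labels' protocols. FastQC, Trimmomatic, HISAT2, StringTie and mm10 are named in the submitters' processing notes; the counting program and its use of strand are not given in the sources used here. Each library has read counts, FPKM and TPM, per the file headers. The authors' counts are whole and unnormalised, the authors' FPKM values were not used, and the authors' TPM values served for levels per length and an alternative test.

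Groups were compared on these counts by edgeR 4.0.16, run in R 4.3.3 (filterByExpr, TMM, robust quasi-likelihood F test, two-sided, Benjamini-Hochberg adjustment over 18456 genes, threshold 0.05), and with DESeq2 1.42.0 and limma 3.58.1 as alternatives; the biological coefficient of variation was 0.354. Members were placed with GENCODE M21 and RefSeq genes of GRCm38. Host is the shortest same-strand RefSeq gene that contains the member. The fit was tested on simulated data in 5 draws, with changes set in genes of at least 1 CPM. It called 15.4% of 500 changes of 2-fold and 81% of 500 changes of 4-fold, 0 of them with the wrong sign. Most 2-fold changes were thus missed. The 42 members under 1 CPM lay below the level at which changes were set, so these shares do not cover them. The labels do not say that libraries are separate animals, so p-values measure the spread between these samples.

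Named genes are the 8 Snord and 6 Snora members of highest CPM, members of at least 0.5 CPM whose group ranges do not overlap, a list of well known snoRNAs, the 3 most counted of other symbols, members at the count limit, hosts of these, and up to 3 genes of smallest p per list; others, such as the Gas5 and SNORA48 sets, SNORA72 and Snora65, were chosen after their values were seen. The members and lists were chosen with earlier results of these data known. With 3 libraries against 3, an exact permutation test could not go below 0.1.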

Additional observations from a re-analysis of the deposited data

How the results depend on the processing

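No snoRNA was called under any of the 19 alternatives run. Not all of them covered the 54 members: 12 were tested at a mean of at least 1 CPM, and a summed count of at least 500 also left fewer. All genes called were 0 except with DESeq2 (87). The Snord median of 0.35 was 0.56 with library totals, 0.50 on log2(TPM + 1) and 0.61 on log2(TPM + 0.1). It was 0.10 at a mean of at least 1 CPM and 0.095 at a summed count of at least 500, where Snord17 was the 1 Snord gene left. Library totals and TPM also moved the median of all genes, to 0.26, 0.14 and 0.23. H/ACA members above 0 were then 25 of 34 with library totals and 24 of 34 on TPM. Leaving out 1 library gave -0.57 to 0.35 for the log2 ratio of summed Snord CPM, -0.51 to 0.037 for that of summed Snora CPM and -0.083 to 0.56 for the Snora median (lowest without GFP 3-1, highest without GFP 1-1). Taking the class also from the description, an alternative chosen after seeing the data, gave medians of 0.36 and 0.05.

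Single members changed sign as follows; the cause was not tested. Snord17 was -0.39 with voom. Snora73a was 0.090 with library totals, 0.088 on log2(TPM + 1) and 0.089 on log2(TPM + 0.1), and Snora74a 0.065, 0.02223 and 0.02222 in the same order. LOC115489055 (SNORA12) was -0.016 with DESeq2's size factors, -0.0001596 with TMM from protein-coding genes, -0.004282 without ribosomal RNA and mitochondrial genes, -0.014 with DESeq2 and -0.19 with voom. Leaving out 1 library gave -0.88 to 0.42 for Snord17, -0.14 to 0.35 for Snord22, -1.69 to 0.23 for Snord118, -0.46 to 0.072 for Snora73a, -0.56 to 0.099 for Snora74a, -0.18 to 0.27 for Snora78, -0.32 to 0.90 for Snora81, -0.14 to 0.89 for Snora28 and -0.32 to 0.20 for LOC115489055.

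No paired analysis was possible because the groups share no replicate number. The 42 members under 1 CPM rest on few reads each.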
